A study of Homo sapiens with 8 samples.

Results

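A pair of poly(A) sites of 1 gene can be made of genomic sites, of annotated transcript ends, or of 1 of each. The pairs described here are those in which the proximal and the distal site were both 3′ ends of annotated transcripts, recognised by an Ensembl transcript identifier at both positions. In the comparison of MDA-LM2 with MDA-Par cells they made up 6599 of 27016 pairs (24.4%) and came from 3406 of 6541 genes. In the comparison of MDA-sgHNRNPC with MDA-sgCTRL cells they made up 6191 of 31148 pairs (19.9%) and came from 3391 of 6801 genes. A total of 4718 of these pairs were listed in both comparisons, which is 71.5% of the first set and 76.2% of the second.

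The 3′ ends of mRNA were sequenced in 8 samples of the human breast cancer line MDA-MB-231, with 2 replicates in each of 4 groups. MDA-Par are the parental, poorly metastatic cells, and MDA-LM2 is a derivative that is highly metastatic to the lungs. In MDA-sgHNRNPC cells HNRNPC is knocked down by CRISPR interference in the MDA-MB-231 background, and MDA-sgCTRL cells carry a non-targeting guide. Both of these express dCas9-KRAB, a repressor without nuclease activity, delivered by lentivirus and enriched by sorting for a fluorescent marker, and cells that took up a guide were selected with puromycin or blasticidin. The comparisons share no samples. The deposited tables hold 1 value per pair and no value of a single sample, so read depth, the spread between replicates and the level of HNRNPC mRNA in each library are unknown, and the error of a pair enters through its deposited P value. For the same reason the cell line could not be checked by its marker genes. The methods call the sequencing replicates biological duplicates, and neither they nor the labels describe further how the 2 replicates of a group were kept apart.

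The 3′ end of an mRNA is set by cleavage and polyadenylation, which in most human genes depends on an upstream hexamer, AAUAAA or a close variant, and on U-rich or GU-rich sequence downstream. Where alternative ends lie in the same last exon, the choice between them changes the length of the 3′ UTR (tandem ends), and where they lie in different last exons it also changes the protein or yields a truncated transcript. Many annotated ends belong to transcripts that retain an intron or are marked for nonsense-mediated decay (NMD), and some annotated transcripts were assembled from partial cDNAs and stop short of any cleavage site. HNRNPC, a nuclear protein that binds U tracts, is known for regulating splicing and the use of intronic poly(A) sites.

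The measurement for each pair is the logAPAR, the change in the log ratio of proximal to distal usage. A negative value is a change towards the distal end and a positive value a change towards the proximal end, and the tables do not name the base of the logarithm. A pair was called at a raw P value under 0.01 in the multinomial logistic regression (APAlog) that the authors fitted to it, and the Benjamini-Hochberg adjusted P value over all pairs of the table is given beside it. The standard error given with each logAPAR was implied by the size of the value against its P value. APAlog works on normalised read counts of the sites and its description names no term for the spread between replicates, so these P values and errors are read here as covering counting error only.

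The ends of some pairs called in MDA-sgHNRNPC cells are shown first as examples, to let their sequence be compared with a cleavage site. Each line gives the last 30 transcribed bases of an annotated end in the GRCh38 genome, 5′ to 3′ on the strand of the gene. Capitals mark AATAAA or ATTAAA, and in the line of bases after the AXL end they mark a run of T.

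AXL proximal end (ENST00000359092.7, chr19:41260265-41260294, plus strand): aattctATTAAAgtgctaaggttctaaggc
AXL bases after the proximal end (chr19:41260295-41260324): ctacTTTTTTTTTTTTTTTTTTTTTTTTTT
AXL distal end (ENST00000301178.9, chr19:41261737-41261766): caggtcacataaaactttgtatatcaacga
PTP4A2 proximal end (ENST00000457805.6, chr1:31908534-31908563, minus strand): tctcctgtctttttaaactttttcaaaata
PTP4A2 distal end (ENST00000602725.5, chr1:31906421-31906450): aaagaacAATAAAacatattttacacgctc
EIF1 proximal end (ENST00000591776.5, chr17:41691183-41691212, plus strand): gttaccacctgaacagtcctcggtgaatct
EIF1 distal end (ENST00000462917.1, chr17:41691617-41691646): ttatttaAATAAAacttgttttcagaaata
PA2G4 proximal end (ENST00000551061.1, chr12:56107190-56107219, plus strand): ccttggggtccatgtggatggcttcatcgc
PA2G4 distal end (ENST00000303305.11, chr12:56113881-56113910): ttaaAATAAAtttggatttgctcataatga
PTMA proximal end (ENST00000466801.5, chr2:231712984-231713013, plus strand): cacccgcagatgacacgcgctctccaccac
PTMA distal end (ENST00000481928.1, chr2:231713477-231713506): tatgtgtgaaacaatgttgtccaacaataa
MBD3 proximal end (ENST00000592012.5, chr19:1576640-1576669, minus strand): ttcggtgcgtccgctagactttggtgccca
MBD3 distal end (ENST00000156825.5, chr19:1573596-1573625): ttacaagcAATAAAatgctcctgtctctgc
PRMT2 proximal end (ENST00000482508.5, chr21:46661241-46661270, plus strand): tcaaaatcaAATAAAttatatttcgtttca
PRMT2 distal end (ENST00000397638.6, chr21:46664922-46664951): cAATAAAtatttttaaatgagtgaatgtca

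In PTP4A2, EIF1, PA2G4 and MBD3 the hexamer stood before the distal end and not before the proximal one. In PRMT2 it stood before both ends, and in AXL the only hexamer of the pair stood before the proximal end, followed by a T run that reached the last of the 30 bases after it. In PTMA neither end had a hexamer in the last 40 bases, but an AATAAA lay across or up to 40 nt after the distal end, as a hexamer did at 5.96% of distal ends of the MDA-sgHNRNPC comparison. The other pairs with an adjusted P under 0.05 in either comparison are not shown. Within the last 40 bases, the distal end alone had a hexamer in ZFP36L1 and UBR4, and neither end had one in SSR3 and PSME3IP1.

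Of the 8147 transcript ends that formed the pairs of the MDA-LM2 comparison, 7302 (89.6%) were found with the same version in GENCODE release 44, and 7101 of 7957 (89.2%) were found for the MDA-sgHNRNPC comparison. Both ends were placed in 5381 pairs (81.5%) and 4981 pairs (80.5%). The proximal end lay upstream of the distal end in every placed pair. The distance between the ends had a median of 7418 nt in the MDA-LM2 comparison (quartiles 2128 and 24069) and 5299 nt in the MDA-sgHNRNPC comparison (quartiles 1757 and 19995), and ran from 55 nt to 866322 nt in SPAG16. Most genes had 1 pair (2442 and 2534 genes), 964 and 857 genes had 3 or more, and KMT2A and MACF1 had the most with 28 each. Pairs of a gene share ends and reads and are not independent, so the 95% intervals given over pairs are narrower than intervals over genes would be.

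Most placed pairs were not tandem ends of a common last exon. In the MDA-LM2 comparison 3581 pairs (66.5%) had separate last exons, 1518 (28.2%) had last exons with the same first base, and 282 (5.24%) had last exons that overlapped without sharing a first base. In the MDA-sgHNRNPC comparison the counts were 2992 (60.1%), 1675 (33.6%) and 314 (6.30%). The median distance between the ends was 1566 and 1662 nt within the same last exon, and 16769 and 15294.5 nt across separate last exons. The proximal end lay inside an internal exon of the distal transcript in 2497 and 2153 pairs, in one of its introns in 332 and 315 pairs, and before its first base in 752 and 524 pairs.

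Protein coding transcripts supplied 4041 of 6894 placed ends (58.6%) in the MDA-LM2 comparison and 3989 of 6681 (59.7%) in the MDA-sgHNRNPC comparison. Retained-intron transcripts supplied 13.9% and 13.1%, transcripts without a defined coding sequence 13.0% and 12.2%, and transcripts marked for NMD 10.8% and 10.7%. Both ends were protein coding in 1794 and 1733 pairs. A protein coding end was paired with a retained-intron end in 906 and 787 pairs and with an NMD end in 690 and 688 pairs. The share of pairs with the same last exon was higher among pairs of 2 protein coding ends (692 of 1794 and 763 of 1733) than among pairs without a protein coding end (193 of 1111 and 221 of 973).

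**Figure D1:**
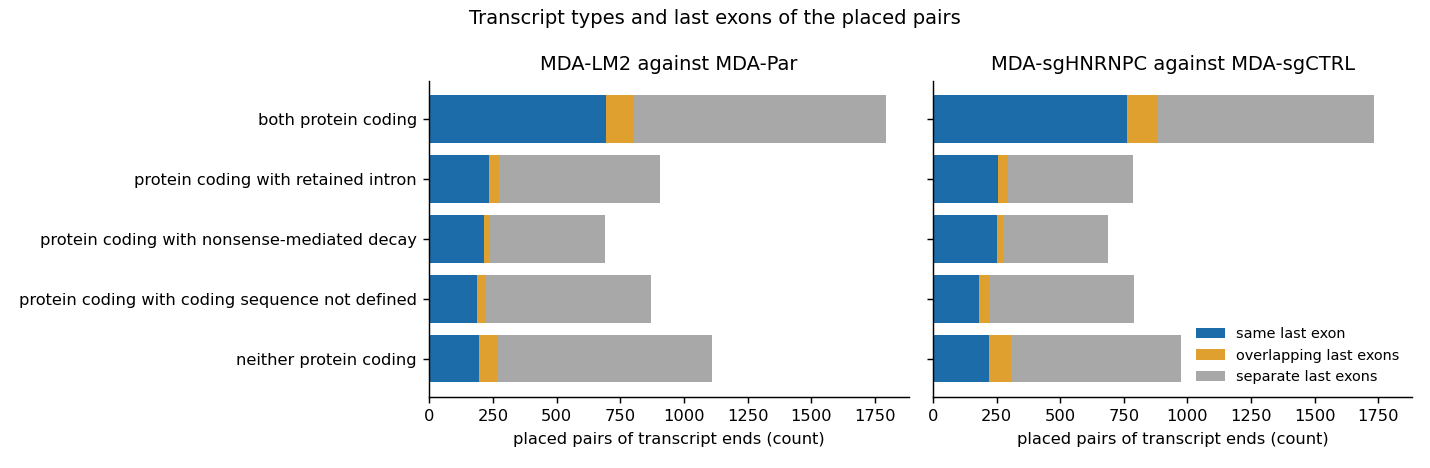
Placed pairs of transcript ends by the types of both transcripts (rows) and by their last exons (colours), as counts, for the MDA-LM2 comparison on the left and the MDA-sgHNRNPC comparison on the right. Separate last exons make up 991 of 1794 and 850 of 1733 pairs of protein coding ends, and the larger part of every other row.

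The distal ends carried the poly(A) signal far more often than the proximal ends. AATAAA or ATTAAA, searched on the strand of the transcript only, stood within the last 40 bases of 59.7% of distal ends and 11.1% of proximal ends in the MDA-LM2 comparison, counted per pair, and of 62.1% and 12.7% in the MDA-sgHNRNPC comparison. The share was 29.3% over all 214377 annotated transcript ends and 53.2% over ends of protein coding transcripts with a complete 3′ end. A window of the same length placed 100 nt further upstream held a hexamer in 6.13% and 4.37% of distal and proximal ends of the MDA-LM2 comparison, which gives the level reached without an end nearby. Among proximal ends the share was 21.3% and 22.3% where both ends lay in the same last exon, and 5.67% and 5.82% where the last exons were separate, so that the latter were close to that level. The hexamers before distal ends began most often 23 nt (MDA-LM2 comparison) or 22 nt (MDA-sgHNRNPC comparison) from the end, at 6.07% and 6.58% of ends, and those before proximal ends had a lower peak at 22 nt in both.

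**Figure D2:**
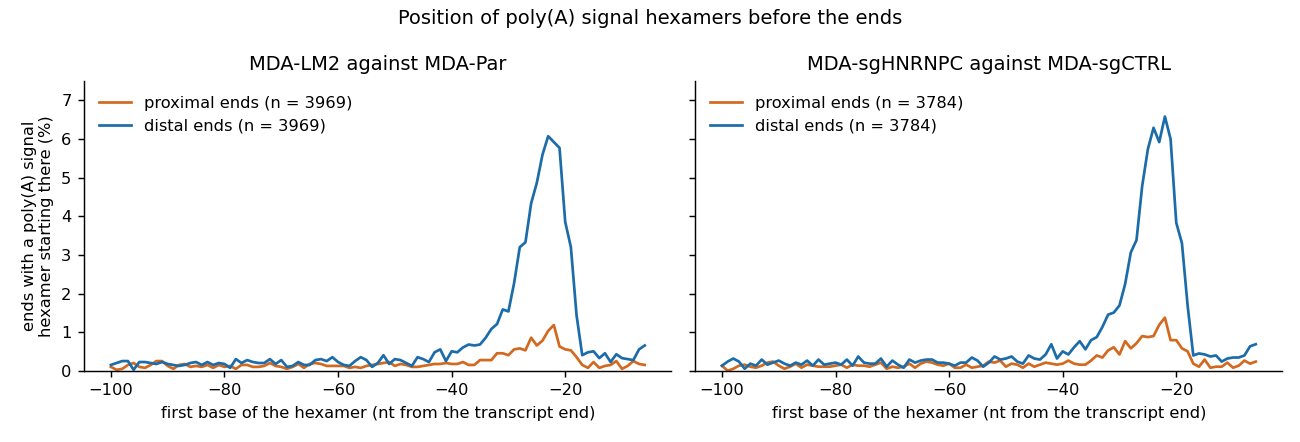
Share of ends with AATAAA or ATTAAA starting at each position before the annotated end, in percent, for unique proximal (brown) and distal (blue) ends of the MDA-LM2 comparison (3969 of each) and the MDA-sgHNRNPC comparison (3784 of each). The distal ends peak 22 to 23 nt before the end, and the proximal ends reach 1.18% and 1.37% at 22 nt.

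Part of the protein coding ends are marked in the annotation as incomplete, meaning that the true 3′ end of the transcript was not established. This mark was on 1019 of 4041 protein coding ends (25.2%) in the MDA-LM2 comparison and on 870 of 3989 (21.8%) in the MDA-sgHNRNPC comparison, and on 2 of 747 and 1 of 713 NMD ends. Incomplete protein coding ends carried a hexamer in 5.30% and 5.40% of cases, and complete ones in 66.2% and 65.4%. The incomplete end was the proximal one of the pair with a complete distal end in 1444 and 1229 pairs, and the distal one with a complete proximal end in 127 and 92. Retained-intron ends carried a hexamer in 21.9% and 23.6% of cases, NMD ends in 24.0% and 26.4%, and ends without a defined coding sequence in 15.2% and 16.0%.

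In MDA-LM2 cells, 58 pairs of transcript ends from 52 genes were called, or 0.879% (95% Wilson interval 0.681 to 1.13), beside 0.803% of all pairs of the table. Of these, 36 moved to the distal end and 22 to the proximal end, beside backgrounds of 0.433% and 0.37% of all pairs. The distal share of the called pairs was 62.1% (Wilson interval 49.2 to 73.4), and over all called pairs of the table it was 53.9%. At a raw P under 0.05 the count was 281 pairs (4.26%, background 4.05%), of which 52.7% lay on the distal side. At an adjusted P under 0.05 (APAlog, Benjamini-Hochberg) 3 pairs remained, beside a background of 0.0296%. The members were therefore called about as often as other pairs of poly(A) sites.

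In MDA-sgHNRNPC cells, 31 pairs from 28 genes were called, or 0.501% (Wilson interval 0.353 to 0.710), beside 0.462% of all pairs. Of these, 25 moved to the distal end and 6 to the proximal end, beside backgrounds of 0.347% and 0.116%. The distal share was 80.6% (Wilson interval 63.7 to 90.8), and over all called pairs of that table it was 75%. At a raw P under 0.05 the count was 80 pairs (1.29%, background 1.3%), of which 83.8% lay on the distal side. Of these pairs 5 passed an adjusted P under 0.05 (APAlog, Benjamini-Hochberg), beside a background of 0.0899%. P values without any change would give 1% under 0.01 and 5% under 0.05, above the 0.501% and 1.29% found. These levels also lie above the 0.879% and 4.26% found in MDA-LM2 cells. In either comparison, a call that rests on raw P alone is therefore not shown to be a change. The changes called in MDA-sgHNRNPC cells had a median size of 0.50 on the logAPAR scale and a median standard error of 0.127. In MDA-LM2 cells these medians were 0.93 and 0.299. As a call requires a size well above its error, the 2 medians are tied by the call itself.

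Most single pairs were imprecise. The median implied standard error over all pairs of transcript ends was 0.705 for MDA-LM2 and 1.01 for MDA-sgHNRNPC, and it was under 0.25 in 7.08% and 3.36% of them. PTMA had the smallest in both, 0.047 and 0.031. A pair that was not called is therefore not shown to be without change at this precision.

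**Figure D3:**
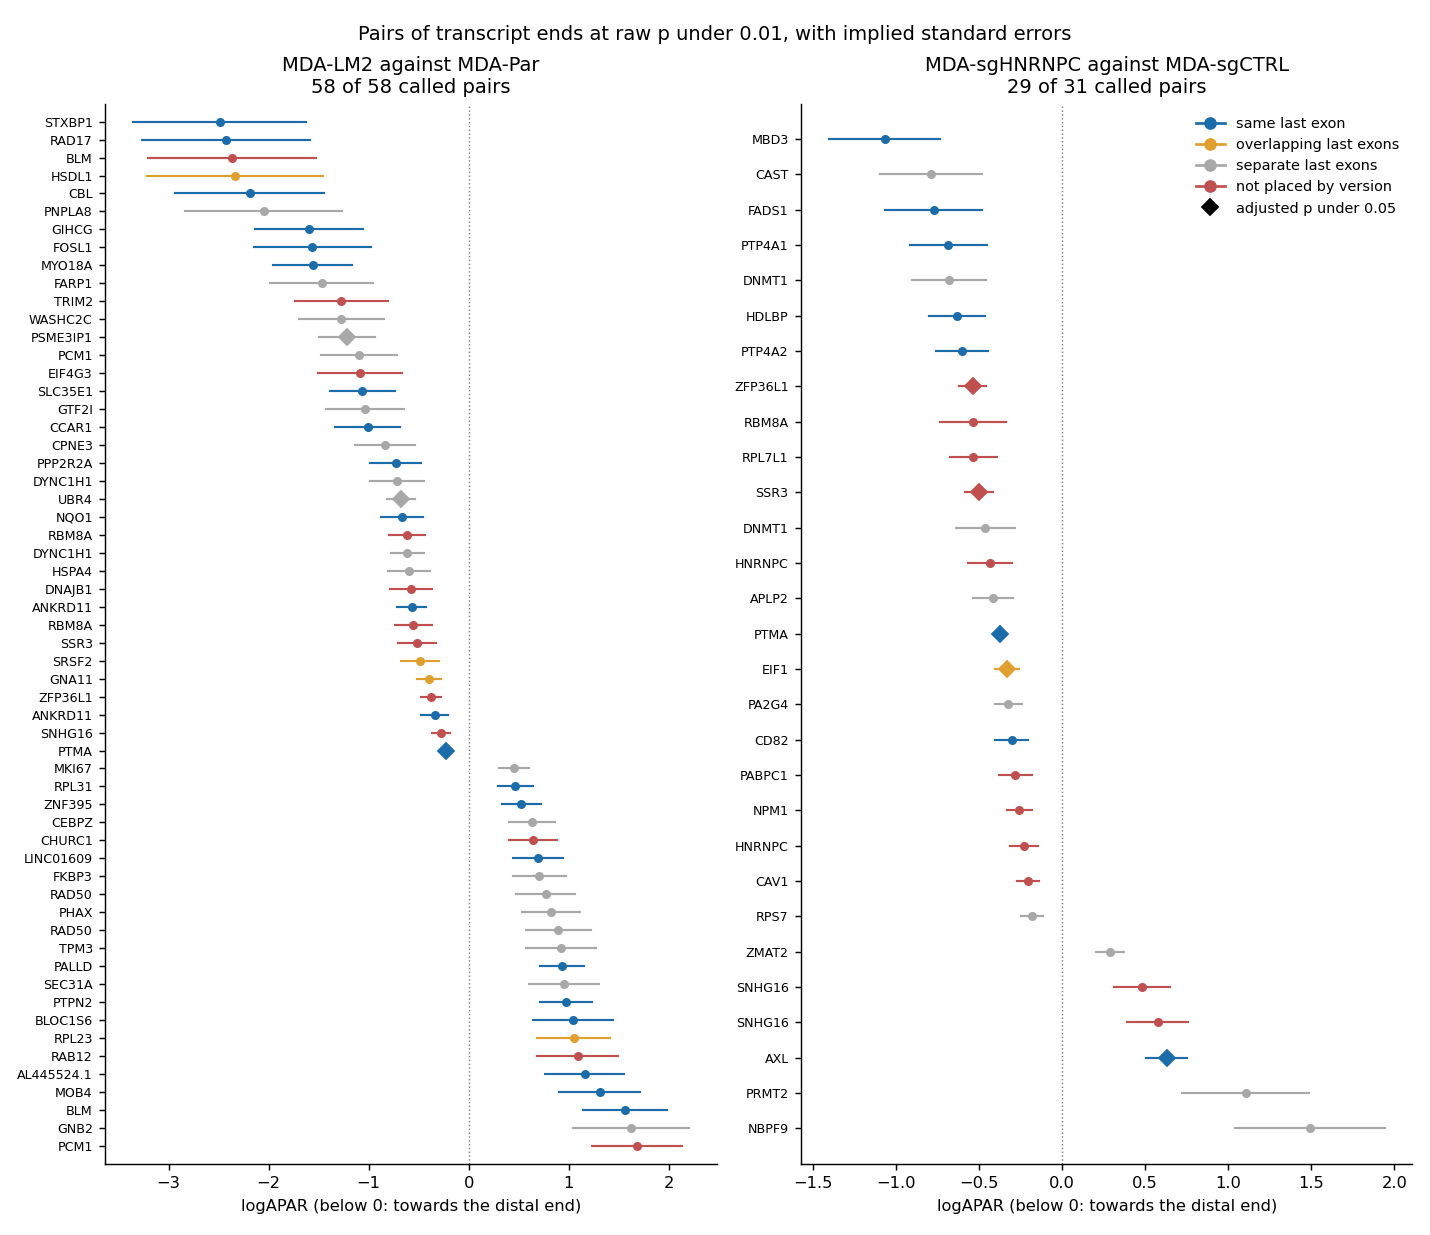
The 58 pairs called in MDA-LM2 cells (left) and 29 of the 31 called in MDA-sgHNRNPC cells (right), with the logAPAR on the horizontal axis and bars of 1 implied standard error, coloured by the relation of the last exons. Diamonds are pairs with an adjusted P value under 0.05, 36 and 23 of the pairs drawn lie to the left of 0 (towards the distal end), and the horizontal scales differ between the panels.

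Over all members, the median logAPAR was -0.02 in the MDA-LM2 comparison (95% interval -0.04 to -0.01, all pairs of the table -0.01) and -0.09 in the MDA-sgHNRNPC comparison (-0.11 to -0.07, all pairs -0.08). Values below 0 made up 51.6% and 56.2% of members, beside 51.0% and 55.2% of all pairs. The small displacement to the distal side was thus shared with the other pairs of each table.

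By last exon, calls in MDA-LM2 cells were made in 1.45% of pairs with the same last exon (22 of 1518, Wilson interval 0.959 to 2.18), in 1.42% of pairs with overlapping last exons (4 of 282) and in 0.559% of pairs with separate last exons (20 of 3581, 0.362 to 0.861), beside 0.803% of all pairs of the table, which lies below the interval of the same last exon alone. In MDA-sgHNRNPC cells the shares were 0.597% (10 of 1675, 0.325 to 1.10), 0.318% (1 of 314) and 0.301% (9 of 2992, 0.158 to 0.571), with intervals that include the 0.462% of all pairs. These classes hold placed pairs only, of which 46 of 5381 (0.855%) and 20 of 4981 (0.402%) were called. Of the pairs not placed, 12 of 1218 (0.985%) were called in MDA-LM2 cells and 11 of 1210 (0.909%) in MDA-sgHNRNPC cells. In the same last exon 13 of the 22 calls in MDA-LM2 cells and 9 of the 10 in MDA-sgHNRNPC cells were to the distal end. In the MDA-sgHNRNPC comparison the median logAPAR was -0.08 in both the same and separate last exons and -0.17 (-0.26 to -0.08) in overlapping ones, which also had the lowest median with 1 pair per gene (-0.18, against -0.13 for the same and -0.15 for separate last exons) and among pairs with an implied error under 0.5 (-0.16, against -0.10 and -0.10). The 1 pair per gene was the one with the lowest P value, a choice that favours values far from 0. In the MDA-LM2 comparison the medians of the same, separate and overlapping last exons were -0.02, -0.03 and -0.06 (-0.15 to -0.02), and their order depended on the pairs used. They were -0.04, -0.09 and -0.06 with 1 pair per gene and -0.05, -0.02 and -0.05 with an implied error under 0.5. Where both transcripts of a pair in the same last exon were protein coding with complete ends and used the same stop codon, so that they differed in the length of the 3′ UTR, 7 of 519 pairs were called in MDA-LM2 cells (1.35%, Wilson interval 0.655 to 2.76, all pairs 0.803%, 4 to the distal end). In MDA-sgHNRNPC cells 8 of 574 were called (1.39%, 0.708 to 2.73, 7 to the distal end), and the 0.462% of all pairs lies below that interval. Pairs with the same last exon were also more precise there. Their median standard error was 0.907, against 1.08 for separate last exons and 1.04 over all pairs. In MDA-LM2 cells these errors were 0.713, 0.712 and 0.746. The part of precision in the shares called was not tested.

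By transcript type, the median in MDA-sgHNRNPC cells was -0.12 for pairs of 2 protein coding ends (-0.16 to -0.08) and -0.02 for pairs without a protein coding end (-0.06 to 0.03). Of these pairs 12 of 1733 (0.692%, 10 to the distal end) and 2 of 973 (0.206%) were called, beside 0.462% of all pairs. The median standard errors of these classes were 0.964 and 1.11. In MDA-LM2 cells the medians were -0.03 and -0.06, and 20 of 1794 (1.11%) and 10 of 1111 (0.900%) were called, beside 0.803% of all pairs. For pairs of a protein coding end with an end of another type, the sign was also set so that a positive value is a gain of the other type. In MDA-sgHNRNPC cells the retained-intron end had a median of -0.10 (-0.18 to -0.05) where it was the proximal end and 0.07 (-0.02 to 0.17) where it was the distal end. The NMD end had -0.13 (-0.19 to -0.08) and 0.06 (-0.07 to 0.21). The end without a defined coding sequence had -0.15 (-0.20 to -0.07) and -0.03 (-0.20 to 0.10). In these 3 types the interval lay below 0 for a proximal end and included 0 for a distal end. Over both orders the retained-intron end had -0.05 (-0.10 to 0.002) and the NMD end -0.09 (-0.15 to -0.04). The end without a defined coding sequence had -0.13 (-0.19 to -0.06). Over all pairs of the table the median logAPAR was -0.08, to the distal side. In MDA-LM2 cells the retained-intron end had -0.06 (-0.11 to -0.01) where proximal and -0.09 (-0.18 to 0.01) where distal, or -0.07 (-0.11 to -0.02) over both orders, and the NMD end had 0.03 (-0.03 to 0.08) over both orders. These medians were not tested.

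By sequence, the medians in MDA-sgHNRNPC cells were lowest for pairs whose distal end had a hexamer. The median was -0.14 (-0.17 to -0.11) in 2664 pairs with a hexamer at the distal end only and -0.12 (-0.20 to -0.05) in 431 pairs with a hexamer at both ends. It was 0.01 (-0.09 to 0.09) in 204 pairs with a hexamer at the proximal end only and -0.02 (-0.05 to 0.02) in 1682 pairs with none. The pairs with a hexamer at neither end were also less precise, with a median standard error of 1.16 against 0.957 where the distal end alone had one. In MDA-LM2 cells the same classes had -0.03, -0.06, -0.08 and -0.04, with overlapping intervals. A run of 6 T within 100 nt on either side of an end, the kind of tract HNRNPC binds as RNA, was present at 21.3% of proximal and 30.2% of distal ends in the MDA-sgHNRNPC comparison and at 19.3% of all annotated ends. The median in that comparison was -0.002 (-0.06 to 0.04) in 697 pairs with such a run near the proximal end only, -0.13 (-0.18 to -0.08) in 1140 pairs with one near the distal end only, -0.11 (-0.20 to -0.04) in 364 pairs with one near both ends, and -0.09 (-0.12 to -0.06) in 2780 pairs with none. The respective counts of calls were 2, 7, 2 and 9, or 0.287%, 0.614%, 0.549% and 0.324%, beside 0.462% of all pairs. In MDA-LM2 cells these medians were -0.03, -0.03, -0.04 and -0.04.

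**Figure D4:**
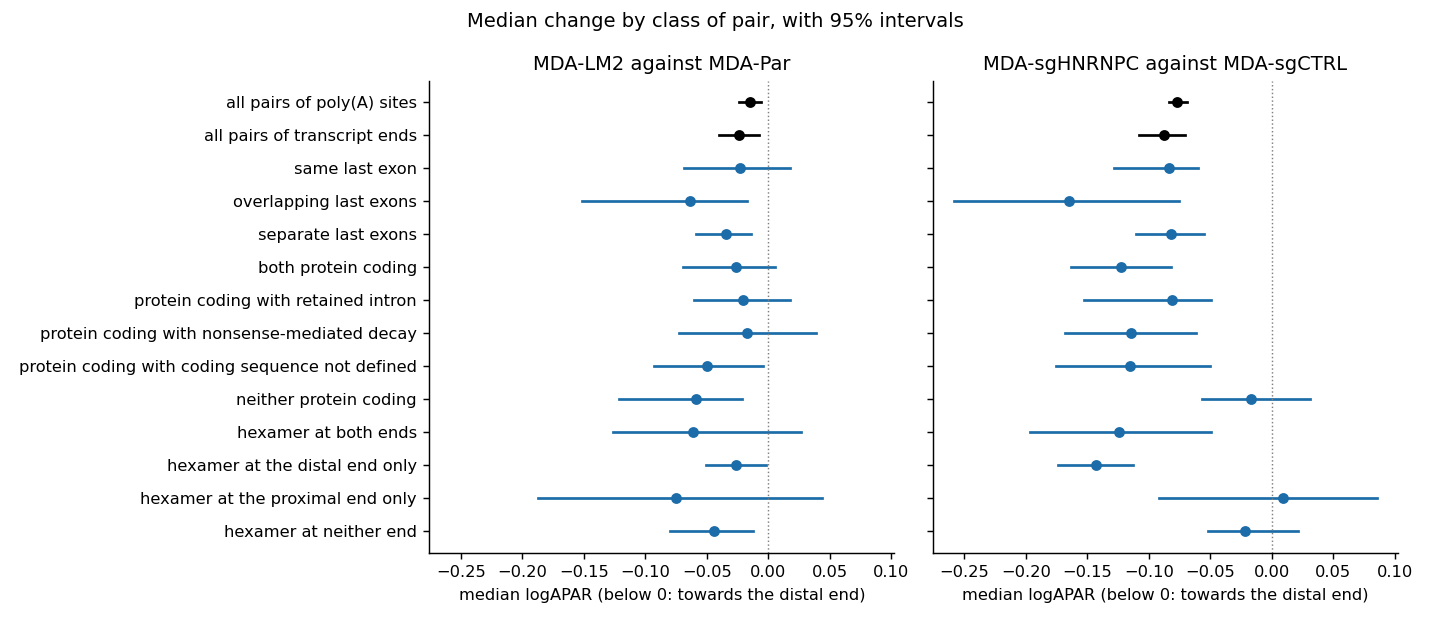
Median logAPAR with 95% intervals for all pairs of poly(A) sites and all pairs of transcript ends (black), and for classes of placed pairs by last exon, transcript type and poly(A) signal (blue). In the MDA-sgHNRNPC comparison on the right, the interval lies below 0 for pairs with a hexamer at the distal end and spans 0 for pairs without one there, and in the MDA-LM2 comparison on the left the medians of these classes lie between -0.08 and -0.02.

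Oligo(dT) priming can start inside a transcript at an A-rich stretch, so the 20 bases after each end were searched for a run of 6 A or at least 12 A in all. Such a stretch followed 9.79% of proximal and 6.71% of distal ends in the MDA-LM2 comparison and 5.30% of all annotated ends. Pairs with an A-rich stretch after the proximal end only were called in 2.01% of cases in MDA-LM2 cells (10 of 497, Wilson interval 1.10 to 3.66, 4 to the distal end), and pairs with none in 0.730% (33 of 4523), beside 0.803% of all pairs. In MDA-sgHNRNPC cells the shares were 0.446% (2 of 448, both to the proximal end) and 0.426% (18 of 4229, of which 16 to the distal end), beside 0.462% of all pairs. The part of internal priming in these calls was not tested.

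Among single genes, the calls with an adjusted P value under 0.05 came first. PTMA, which encodes the acidic nuclear protein prothymosin alpha, moved to the distal end in MDA-sgHNRNPC cells with a logAPAR of -0.37 ± 0.031 (SE, APAlog adjusted P = 1.12e-28) and in MDA-LM2 cells with -0.23 ± 0.047 (the authors' APAlog adjusted P = 0.00981). Its ends lie 493 nt apart in the same last exon. Of the 31-base words in the last 300 bases of the proximal and the distal transcript, 63.0% and 68.9% also occur in other annotated genes, among them PTMA pseudogenes, so its reads cannot all be told from theirs. ZFP36L1, which binds AU-rich elements and promotes mRNA decay, moved to the distal end with -0.54 ± 0.079 in MDA-sgHNRNPC cells (the authors' APAlog adjusted P = 1.25e-07) and was called at -0.37 ± 0.10 in MDA-LM2 cells (raw P = 0.000202, adjusted P = 0.18). Its proximal end was found in GENCODE release 44 only with another version, and the 20 bases after that end hold 14 A. SSR3, a subunit of the translocon-associated complex of the endoplasmic reticulum, moved to the distal end with -0.50 ± 0.083 (the authors' APAlog adjusted P = 1.24e-05) and was called at -0.51 ± 0.189 in MDA-LM2 cells (raw P = 0.00653).

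EIF1, a factor for start codon selection, moved from a protein coding end to a retained-intron end 434 nt downstream in MDA-sgHNRNPC cells, with -0.33 ± 0.072 (the authors' APAlog adjusted P = 0.00789). Only the latter has a hexamer, as its sequence above shows. AXL, a receptor tyrosine kinase, went the other way. Its logAPAR was 0.63 ± 0.124 (the authors' APAlog adjusted P = 0.00116), a gain of the end 1472 nt upstream in the same last exon, with the same stop codon and hence a shorter 3′ UTR. In MDA-LM2 cells the AXL pair had -0.14 ± 0.161 (the authors' raw P = 0.374). The difference between the comparisons was 0.77 ± 0.203 (Wald test from errors implied by the authors' P values, raw P = 0.000139, Benjamini-Hochberg adjusted P = 0.369 over 21293 pairs) and did not pass the adjustment. This test is a normal approximation on errors that are read here as covering counting only, and no exact test over replicates was possible without values of single samples.

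The 2 other pairs past the adjustment belonged to MDA-LM2 cells. UBR4, a large E3 ubiquitin ligase, moved to the distal end with -0.68 ± 0.139 (the authors' APAlog adjusted P = 0.00924), and PSME3IP1, a nuclear protein that binds a proteasome activator, with -1.22 ± 0.281 (APAlog adjusted P = 0.049). In both, the proximal end is an incomplete protein coding transcript in a separate last exon, 46690 and 9909 nt upstream. The last 300 bases of the distal UBR4 transcript are shared in full with another annotated gene, and 55.9% of the words of the proximal PSME3IP1 transcript occur in a pseudogene.

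The other same-exon calls in MDA-sgHNRNPC cells with the same stop codon moved to the longer 3′ UTR, and 5 of them are described here. PTP4A2, a protein tyrosine phosphatase, had -0.60 ± 0.155 (the authors' raw P = 0.000101, APAlog adjusted P = 0.0938). The related PTP4A1 had -0.69 ± 0.231 and HDLBP, an RNA-binding protein with KH domains, -0.63 ± 0.167. CD82, a tetraspanin, had -0.30 ± 0.0984 and FADS1, a fatty acid desaturase, -0.77 ± 0.293. In MDA-LM2 cells none of these 5 pairs was called, with raw P values of 0.564 for PTP4A2 and 0.174 for HDLBP, for which the logAPAR was 0.37 ± 0.274. PTP4A1, CD82 and FADS1 were named after their values were seen.

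Same-exon calls in MDA-LM2 cells went both ways. PALLD, an actin-binding protein, gained the proximal end by 0.93 ± 0.220 (the authors' raw P = 2.34e-05, APAlog adjusted P = 0.0634), and its transcripts have different stop codons. The 20 bases after that proximal end hold 16 A. PTPN2, a tyrosine phosphatase, gained the proximal end by 0.98 ± 0.259 (the authors' raw P = 0.000168) with the same stop codon. Of the words of its distal end, 35.6% recur in other genes. MYO18A, an unconventional myosin, moved to the distal end by -1.56 ± 0.396 (the authors' raw P = 8.31e-05). ANKRD11, a chromatin regulator, moved to the distal end in 2 pairs that share the proximal end, by -0.57 ± 0.146 and -0.34 ± 0.132, and the sequence after that end is A-rich. In MDA-sgHNRNPC cells the ANKRD11 pairs had 0.31 and 0.16 and were not called. BLM, a DNA helicase, had 1 pair at 1.56 ± 0.418 and a second, whose distal end is the proximal end of the first, at -2.37 ± 0.839. Both calls are a gain of the same middle end, which is followed by an A-rich stretch. Of the words of the most distal BLM end, 64.1% recur in other genes.

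In separate last exons, PA2G4, a growth-regulated RNA-binding protein, moved to the distal end in MDA-sgHNRNPC cells by -0.32 ± 0.0830 (the authors' raw P = 0.000102, APAlog adjusted P = 0.0938). Its proximal end is incomplete and shares 89.3% of its words with other annotated genes. APLP2, an amyloid precursor-like protein, moved from an incomplete retained-intron end to a protein coding end by -0.42 ± 0.121, and ZMAT2, a zinc finger protein of the spliceosome, gained an incomplete proximal end by 0.29 ± 0.0837, with an A-rich stretch after that end. In MDA-LM2 cells MKI67, the proliferation marker Ki-67, gained a proximal end by 0.45 ± 0.150, and WASHC2C, a subunit of the WASH complex, moved to the distal end by -1.27 ± 0.427. The last 300 bases of both WASHC2C transcripts share 67.4% and 74.8% of their words with other genes, WASHC2A among them. Of the called pairs that could be placed, 11 of 46 in MDA-LM2 cells and 5 of 20 in MDA-sgHNRNPC cells had an incomplete end (23.9% and 25%), beside 32.1% and 28.7% of all placed pairs.

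Pairs of a retained-intron end with a protein coding end were called in shares whose intervals include that of the whole table. In MDA-sgHNRNPC cells 5 of 787 such pairs were called (0.635%, Wilson interval 0.272 to 1.48, all pairs 0.462%). Beside EIF1 and APLP2, DNMT1, the maintenance DNA methyltransferase, moved from an incomplete protein coding end to a retained-intron end 42195 nt downstream by -0.68 ± 0.223. PRMT2, an arginine methyltransferase, gained the proximal retained-intron end by 1.11 ± 0.381, and NBPF9, a member of a multicopy gene family, gained one by 1.49 ± 0.451. The NBPF9 transcripts share 71.5% and 91.9% of their words with other genes, so that value is uncertain, and an A-rich stretch follows the end gained. In MDA-LM2 cells 6 of 906 were called (0.662%, 0.304 to 1.44, all pairs 0.803%). FKBP3, a peptidyl-prolyl isomerase, gained the retained-intron end by 0.71 ± 0.269, PHAX, an adaptor for nuclear export of small nuclear RNA, by 0.82 ± 0.290, and SEC31A, a coat protein of secretory vesicles, by 0.95 ± 0.350. DYNC1H1, the dynein heavy chain, lost the proximal retained-intron end to the protein coding end by -0.71 ± 0.269. GTF2I, a transcription factor, had -1.04 ± 0.389, but all words of its distal end also occur in 2 of its pseudogenes and the bases after it are A-rich. For PHAX the value in MDA-sgHNRNPC cells was -0.51 ± 0.323 (the authors' raw P = 0.113).

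Pairs of an NMD end with a protein coding end were called in 3 of 690 cases in MDA-LM2 cells (0.435%, Wilson interval 0.148 to 1.27, all pairs 0.803%). In MDA-sgHNRNPC cells 1 of 688 was called (0.145%, 0.0257 to 0.819, all pairs 0.462%), so both intervals include the share over all pairs. The pair called in MDA-sgHNRNPC cells was that of MBD3, a subunit of a chromatin remodelling and deacetylase complex, which moved to the distal protein coding end by -1.07 ± 0.334 (the authors' raw P = 0.00137, APAlog adjusted P = 0.678). SLC35E1, a member of a solute carrier family, moved to the protein coding end in MDA-LM2 cells by -1.06 ± 0.325. TPM3, a tropomyosin, gained the NMD end by 0.92 ± 0.349, with an A-rich stretch after it and 64.1% of its words in other genes. RAD50, a double-strand break repair protein, gained an incomplete protein coding end, followed by an A-rich stretch, over the NMD end by 0.77 ± 0.298, but all words of its ends also occur in 1 other annotated gene.

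HNRNPC, the gene targeted in the knockdown, had 3 pairs of transcript ends in the MDA-sgHNRNPC comparison. The end of ENST00000556897.5 against that of ENST00000449098.5 had -0.43 ± 0.132 (the authors' raw P = 0.000988, APAlog adjusted P = 0.522), and the retained-intron end of ENST00000554417.1 against ENST00000449098.5 had -0.23 ± 0.083 (raw P = 0.00608). The third pair, ENST00000554417.1 against ENST00000556897.5, had 0.21 ± 0.14 (the authors' raw P = 0.14). The 3 values are set by 3 ends and add up, so they are not 3 separate observations. In MDA-LM2 cells the same pairs had -0.14, -0.10 and 0.04 and none was called. Of the words of the ENST00000554417.1 end, 74.4% occur in HNRNPC-like genes and pseudogenes. PABPC4, PABPN1 and PDLIM5, other genes of the study, had pairs of transcript ends but none was called, and KAT14 had no such pair.

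A set of 30 splicing and 3′-end factors whose genes are known for alternative ends, retained introns or decay-prone isoforms had 65 pairs in 19 genes in the MDA-LM2 comparison and 60 pairs in 17 genes in the MDA-sgHNRNPC comparison. SRSF2, a splicing factor, was the only one called, with -0.49 ± 0.186 in MDA-LM2 cells (the authors' raw P = 0.00883). In MDA-sgHNRNPC cells no pair of the list was called by APAlog at a raw P under 0.01, and 2 lay under 0.05, SRSF2 with -0.39 ± 0.192 (the authors' raw P = 0.0433) and SRSF10 with -0.62 ± 0.315 (raw P = 0.0476). Beside 0.803% and 0.462% of all pairs called in the 2 tables at 0.01, and 1.3% in MDA-sgHNRNPC cells at 0.05, these counts are too small to set the list apart. In MDA-LM2 cells 2 pairs lay under 0.05 (all pairs 4.05%), SRSF2 and SRSF4, the latter with -0.91 ± 0.358 (the authors' raw P = 0.0113). The median logAPAR of the list was -0.14 for MDA-LM2 and -0.01 for MDA-sgHNRNPC cells, beside -0.02 and -0.09 over all members.

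HNRNPC binding sites were available as the 98 site sequences designed for the reporter library of the study. An exact match lay between 2000 nt before the proximal end and the distal end in 71 pairs of 49 genes in the MDA-LM2 comparison and in 74 pairs of 52 genes in the MDA-sgHNRNPC comparison. The median logAPAR of these pairs was -0.15 in MDA-sgHNRNPC cells, with 66.2% of values below 0, beside -0.09 and 56.2% over all members. None was called there by APAlog at a raw P under 0.01, and 2 lay under 0.05, EFHD2 with -0.54 (the authors' raw P = 0.0181) and KIAA0319L with -0.46 (raw P = 0.0351). With 0.462% of all pairs called at 0.01 and 1.3% at 0.05, counts of this size do not separate these pairs from the rest. In MDA-LM2 cells the median was 0.01, and 1 of the 71 pairs was called (all pairs 0.803%), in the ubiquitin ligase gene CBL with -2.19 ± 0.748.

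Of the pairs called in MDA-LM2 cells, 53 were also listed in the MDA-sgHNRNPC comparison, and 26 of them had the same sign there. Of the 31 called in MDA-sgHNRNPC cells, all were listed in both, and 18 had the same sign in MDA-LM2 cells. The same sign was found in 52.0% of the 4718 pairs in common. The same pair was called in both comparisons in 4 genes, PTMA, ZFP36L1, SSR3 and RBM8A, and each moved to the distal end both times. The share called in both over all pairs of poly(A) sites is not given here, so this count has no background beside it. RBM8A, a core protein of the exon junction complex, had -0.62 ± 0.177 in MDA-LM2 cells and -0.54 ± 0.200 in MDA-sgHNRNPC cells for a retained-intron end against the distal end, and 67.4% of the words of that proximal end occur in RBM8B or 1 further gene. The PTMA change was larger in MDA-sgHNRNPC cells by 0.14 on the logAPAR scale (difference -0.14, Wald test from errors implied by the authors' P values, raw P = 0.0124, adjusted P = 1), and the other 3 differed with a raw P of 0.198 or more.

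**Figure D5:**
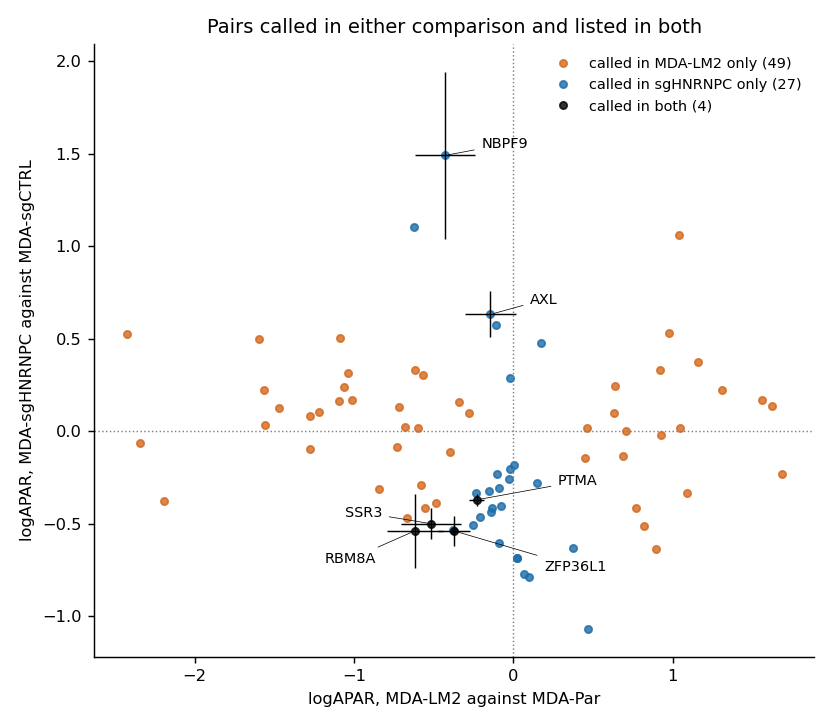
logAPAR in the MDA-LM2 comparison (horizontal) against the MDA-sgHNRNPC comparison (vertical) for pairs called in either and listed in both, with 49 called in MDA-LM2 cells only, 27 in MDA-sgHNRNPC cells only and 4 in both. Bars on the named genes are 1 implied standard error, and the 4 pairs called in both lie in the lower left quadrant.

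No pair of transcript ends differed between the comparisons at an adjusted P under 0.05 (Wald test with implied standard errors, Benjamini-Hochberg over 21293 pairs), beside a background of 0.0047%. With median implied errors of 0.705 and 1.01 for a single pair, this does not show that the pairs changed alike. At unadjusted levels 81 of the 4718 pairs (1.72%) differed at P under 0.05 and 13 (0.276%) at P under 0.01, beside 1.97% and 0.385% of all pairs tested. All these shares lie below the 5% and 1% that P values without any difference would give. The lowest P values belonged to NBPF9 (difference 1.92, raw P = 8.72e-05, adjusted P = 0.276) and AXL, computed from the authors' values.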

How the data were processed

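mRNA 3′ ends were sequenced by the authors (QuantSeq kits, Lexogen) in 8 samples. Per the study's methods and the submitters' processing notes, reads were deduplicated with UMI-tools and counted with Salmon 0.14.1 on unique 3′ ends of GENCODE release 33, and APAlog (multinomial logistic regression on normalised counts) was fitted to each pair of sites. The deposited tables hold the authors' logAPAR (the change in the log ratio of proximal to distal usage), raw p-value and adjusted p-value for each pair, which are the authors' own comparisons. They are used here because the tables hold nothing else, so depth is unknown and no library could be left out. The adjusted value equals the Benjamini-Hochberg adjustment over the table. The values of logAPAR served as deposited, in a unit whose log base is not named. The table positions are not of GRCh38, so ends were placed by transcript identifier and version in GENCODE release 44, and sequence was read from GRCh38.

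Implied standard errors are the logAPAR divided by the normal quantile of its p-value. Differences between comparisons were tested by a Wald test on these, two-sided, adjusted over 21293 pairs. Its code was run on values simulated from these same errors, which cannot show how the test behaves with spread between replicates. Intervals of shares are Wilson and those of medians are binomial order-statistic intervals, both at 95%. The software was scipy 1.17.1, pandas 2.3.3, numpy 2.4.6, pysam 0.24.0 and matplotlib 3.10.9 under Python 3.11.15.

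Genes named are those with a member at an adjusted p under 0.05, the 10 with the lowest raw p in each table, up to 5 called genes in each of the classes same last exon, separate last exons, NMD with protein coding and retained intron with protein coding, genes with the same pair called in both tables, and HNRNPC, PABPC4, PABPN1, PDLIM5 and KAT14. Other genes were named after their values were seen. Some called pairs enter the counts but are not reported here by name. The members, classes and lists were chosen with earlier results of these data known. Alternatives covered the threshold, 1 pair per gene, precision, version matching, the definition of a last exon and the hexamer window.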

Additional observations from a re-analysis of the deposited data

How the results depend on the processing

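Of 68 values recomputed for 34 results, 48 stayed within 1.5 times the count or within the interval of the main value, and 20 moved. Changes of sign were not scored. The number of called pairs followed the threshold. In MDA-LM2 cells it was 281 at a raw p under 0.05, 12 under 0.001, 3 at an adjusted p under 0.05 and 4 under 0.1 (APAlog, Benjamini-Hochberg), and in MDA-sgHNRNPC cells it was 80, 16, 5 and 8. It was 20 in MDA-sgHNRNPC cells among placed pairs with ends at least 50 nt apart, because pairs that could not be placed dropped out. Taking for each gene the pair with the lowest p moved the median logAPAR of separate last exons to -0.087 in MDA-LM2 cells and to -0.15 in MDA-sgHNRNPC cells, and that of the same last exon in MDA-sgHNRNPC cells to -0.13. A choice by the lowest p favours values far from 0 by construction, and its part in these moves was not tested. The share of ends with a hexamer within 60 nt was 13.3% (proximal) and 61.9% (distal) in the MDA-LM2 comparison and 15.2% and 64.4% in the MDA-sgHNRNPC comparison, and with AATAAA alone it was 7.60%, 48.7%, 9.05% and 50.4%, by construction of the window and the motif. Leaving out a replicate was not run. No paired analysis was possible because each pair has a single deposited value per comparison. Depth is unknown, the spread between replicates is not in the deposited values, whose p-values are read here as covering counting error only, and ends shared with other genes or not set by cleavage limit what a pair measures.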
